A study of Mus musculus with 9 samples.

Results

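The 7 genes Pparg, Cebpa, Cebpb, Cebpd, Fabp4, Ebf1 and Zfp423 are regulators or markers of adipogenesis, the path by which fibroblast-like precursors become fat cells. They were picked by name from the 21938 protein-coding genes of GENCODE M21, and the peaks within 1 kb of their transcription start sites (TSSs) and within the gene body and 50 kb on either side were read from 4 lists of accessible regions. At these loci lay 151 of the 128522 sites obtained when overlapping peaks of the 4 lists were merged. The lists come from ATAC-seq, in which the transposase Tn5 cuts open chromatin, in primary mouse embryonic fibroblasts (MEFs) used below passage 8. WT MEFs and MEFs null for Anp32e, a histone chaperone that removes the variant histone H2A.Z, were measured untransfected, with 3 libraries each. Transfected cells were all Anp32e null as well. They had received a non-targeting (NT) siRNA, with 1 library, or siRNA against H2A.Z, with 2 libraries, and are called the NT list and the H2A.Z list. So 3 of the 4 lists are from null cells, and no WT cells were transfected. Values for all lists are given in the order WT, null, NT and H2A.Z. The labels name 1 peak list for all libraries of a group, and how the libraries were combined to call it is not stated. No spread between the 9 libraries could therefore be measured, no test between lists was made, and a difference of genotype cannot be told apart from a difference between the embryos the cultures came from. In a culture, partial opening in all cells and full opening in some cannot be told apart either.

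Adipogenesis is a cascade of transcription factors. CEBPB and CEBPD appear early, upon hormonal induction, and activate Cebpa and Pparg, which then maintain each other's expression and switch on genes of the fat cell such as Fabp4, the fatty acid binding protein of adipocytes. PPARG is a nuclear receptor that binds DNA as a dimer with RXR, and is required for fat cells to form. EBF1 and ZFP423 act upstream of Pparg, and ZFP423 marks fibroblasts that are committed to the fat lineage. Embryonic fibroblasts are not fat cells but can be induced to become so.

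The promoters that bear on the results are shown in RefSeq sequence (GRCm38.p6, 250 bases before to 50 after the start). Of the 7 genes, 5 had entries, 9 in all, and Cebpd and Fabp4 had none. Both strands were searched for the letters of 8 elements, none of which contains another. TTGCNNAA stands for C/EBP factors, while AGGTCA is bound by nuclear receptors. CCCNNGGG stands for EBF factors, and TGANTCA for the AP-1 factors. The core of the cAMP response element is TGACG, the GC box is GGGCGG, the TATA box is TATAAA and the CCAAT box is its own name. Capitals mark every match to any of them.
Pparg upstream promoter, chr6:115360894-115361193, plus strand: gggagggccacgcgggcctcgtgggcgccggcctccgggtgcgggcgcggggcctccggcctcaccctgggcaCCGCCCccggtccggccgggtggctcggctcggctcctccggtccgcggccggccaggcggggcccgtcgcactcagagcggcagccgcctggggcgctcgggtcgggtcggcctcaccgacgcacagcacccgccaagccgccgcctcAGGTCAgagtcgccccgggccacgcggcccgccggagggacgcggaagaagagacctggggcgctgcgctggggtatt
Pparg downstream promoter, chr6:115421816-115422115, plus strand: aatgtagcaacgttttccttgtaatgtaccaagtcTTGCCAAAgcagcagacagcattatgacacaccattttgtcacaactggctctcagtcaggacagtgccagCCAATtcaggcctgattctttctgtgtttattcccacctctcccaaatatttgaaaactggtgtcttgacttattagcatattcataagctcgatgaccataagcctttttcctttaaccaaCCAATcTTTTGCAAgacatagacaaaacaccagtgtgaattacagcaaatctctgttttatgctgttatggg
Cebpa promoter, chr7:35119043-35119342, plus strand: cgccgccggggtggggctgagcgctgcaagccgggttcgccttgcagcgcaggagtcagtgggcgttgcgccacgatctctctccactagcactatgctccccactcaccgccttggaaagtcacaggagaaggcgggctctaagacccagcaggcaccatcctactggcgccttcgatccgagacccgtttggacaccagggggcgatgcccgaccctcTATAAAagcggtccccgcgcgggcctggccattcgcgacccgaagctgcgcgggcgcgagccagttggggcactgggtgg
The upstream Pparg promoter was 80.3% G or C, with 1 nuclear receptor match and 1 GC box. Its downstream counterpart, from which the fat cell isoform Pparg2 is transcribed, was 40.3% G or C and held 2 matches to the C/EBP letters and 2 CCAAT boxes, which are found in 10.8% and 37.4% of all 32851 promoters. The Cebpa promoter held a TATA box, like 13.6% of promoters, and no C/EBP match. The main Zfp423 promoter held 2 C/EBP matches, and none was found in that of Cebpb or in the RefSeq windows of Ebf1. The Ebf1 windows (chr11:44617850-44618149 and chr11:44619978-44620277) lie downstream of its outermost start at 44617317. Among windows around the summits of Ebf1 TSS peaks, that at -0.145 kb held 1 C/EBP match. That at 5.216 kb held 2, and that at 1.076 kb none. These matches are letters in a window and not measured binding.

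All 7 genes had a peak within 1 kb of a TSS in all 4 lists. On the GRCm38 (mm10) build the genes lie at chr6:115360951-115490399 (Pparg, plus strand), chr7:35119293-35121928 (Cebpa, plus), chr2:167688915-167690418 (Cebpb, plus), chr16:15887286-15891031 (Cebpd, plus), chr3:10204088-10208576 (Fabp4, minus), chr11:44617317-45008091 (Ebf1, plus) and chr8:87661810-87959595 (Zfp423, minus). Distances are from the outermost start in the direction of transcription, so a negative value is upstream. A peak near the TSS was found for 67.2% of protein-coding genes in WT, 66.7% in null, 66.8% in the NT list and 68.4% in the H2A.Z list, so a TSS peak is common among genes. Peaks were ranked within their list by fold enrichment, the number of fragments at the summit over the local background, as a percentile in which the highest peak of a list is near 100, and the strongest TSS peak of each gene was taken. The median percentile of the 7 genes was 73.8, 78.9, 69.0 and 79.0, against 81.7, 80.0, 79.5 and 81.5 for all genes with a TSS peak. By fold the median of the 7 genes was the lower in each list. Ranked by −log10 p it was 80.0, 79.1, 91.9 and 92.9, against 85.5, 85.1, 88.6 and 90.1 for all genes, so it was the higher in both siRNA lists. By summit fragments it was 87.0, 85.3, 92.5 and 93.1, against 86.5, 85.9, 88.9 and 90.2, and was the lower in null alone.

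Pparg and Cebpa, the central pair of the cascade, ranked higher in null than in WT. The upstream Pparg promoter carried a peak of 1697, 1608, 1557 and 1675 bp. Its percentile was 78.8 in WT, 86.0 in null, 79.1 in the NT list and 79.0 in the H2A.Z list, with summits of 82, 81, 143 and 461 fragments. By fold the null value was the highest and the other lists lay within 1 point of each other. Ranked by summit fragments Pparg stood at 70.8, 73.3, 78.4 and 78.4, so that null lay between WT and the siRNA lists. At Cebpa a single peak of 2035, 2372, 2065 and 2324 bp covered the TSS, at percentiles 73.8, 79.4, 74.6 and 79.6 in the same order. Null and H2A.Z siRNA were the higher pair by fold, while by summit fragments the values were 88.6, 92.7, 93.6 and 93.7. Its summit of 163 fragments in WT (95% Poisson interval 139 to 190) and 200 in null (173 to 230) was 18.4 and 39.1 times the genome background of the list, a log2 change of 0.49 (0.19 to 0.80) relative to that of all shared sites. For the upstream Pparg promoter the same change was 0.18 (-0.28 to 0.64). Intervals here and below cover counting error only, not the spread between cultures.

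The early factors Cebpb and Cebpd ranked lower by fold in null than in WT, and differed less by summit fragments. The Cebpb peak stood at percentile 63.8 in WT, 60.8 in null, 53.3 in the NT list and 67.4 in the H2A.Z list, with summits of 151, 130, 437 and 1916 fragments. The local background of this promoter was 28.0, 19.4, 57.3 and 236 fragments, the highest of the 7 genes in both siRNA lists but not in WT or null. Ranked by summit fragments, the same peaks stood at 87.0, 85.3, 96.7 and 98.3. Cebpd had the highest promoter of the 7 in WT, at percentile 87.4, and stood at 80.1 in null, 69.0 in the NT list and 79.9 in the H2A.Z list. Its summits held 278, 263, 399 and 1740 fragments, and ranked by these Cebpd lay between 95.7 and 97.7 in all 4 lists.

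Of the upstream regulators, Ebf1 ranked lower in null by fold and about level by summit fragments, and Zfp423 ranked lower by both. Ebf1 stood at 85.4 in WT, 78.9 in null, 81.6 in the NT list and 83.0 in the H2A.Z list, from summits of 169, 160, 312 and 1138 fragments lying at -145 to -146 bases from the TSS. By summit fragments Ebf1 stood at 89.3 in WT and 89.2 in null, and in depth-scaled fragments relative to all shared sites the log2 change was 0.12 (-0.20 to 0.44). The Zfp423 promoter region had 2 peaks in each list, with summits at -1039 to -935 and 603 to 804 bases from the annotated start, rather than 1 peak over it. In WT the pair held 124 and 108 fragments, in null 76 and 66, in the NT list 94 and 68, and in the H2A.Z list 187 and 239. The upstream peak stood at 63.6, 55.4, 59.8 and 48.5 by fold and the downstream peak at 57.1, 48.4, 43.4 and 59.5. The strongest of the pair, used for the gene, was thus the upstream peak in all lists but that of H2A.Z siRNA, and by summit fragments it stood at 82.7, 71.2, 67.8 and 62.9.

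**Figure D1:**
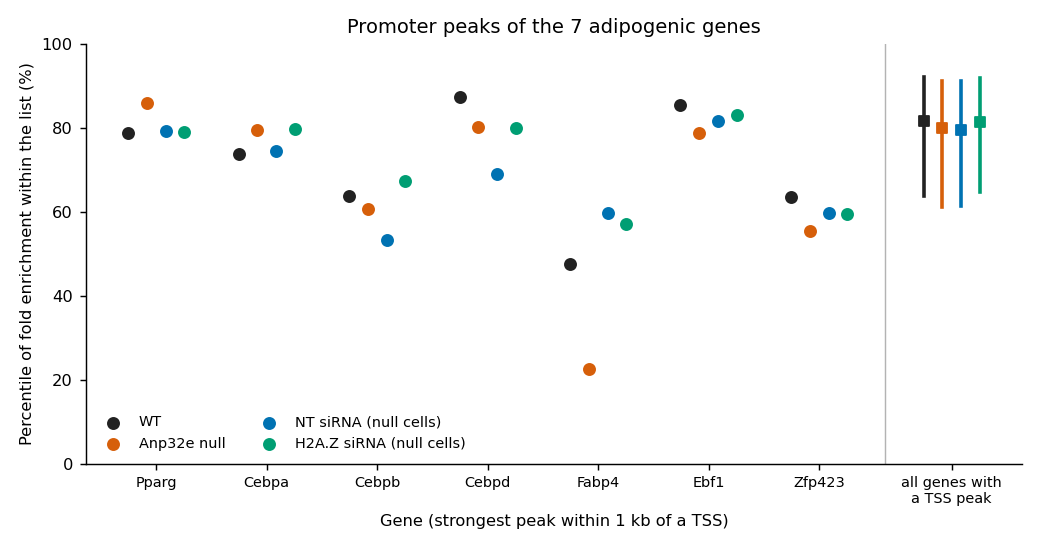
Percentile of fold enrichment within each peak list (vertical axis, percent) for the strongest peak within 1 kb of a TSS of each gene, 1 point per list, with the median (square) and quartiles (line) of all protein-coding genes with a TSS peak at the right. Fabp4 in Anp32e null is the lowest point at 22.6, and Cebpd in WT the highest at 87.4.

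Fabp4, the target gene, had the promoter with the fewest summit fragments of the 7 in every list. Its core promoter, with the summit at -94 to -17 bases from the TSS, was called in WT (47 fragments, percentile 47.6), in the NT list (69 fragments, 59.7) and in the H2A.Z list (203 fragments, 57.1) but not in null. Where called, it was 333, 449 and 477 bp wide, narrower than the strongest TSS peak of each other gene in the same list. What counted as its TSS peak in null was a separate peak whose summit lay at -1090 bases, at percentile 22.6 with 33 fragments. That upstream peak was called in WT too, at 30.9, and in the H2A.Z list at 8.21, but not in the NT list. With a window of 500 bp on either side, 5 of the 7 genes kept a TSS peak in null and 7 in each of the other lists, as Fabp4 and Zfp423 had none that close.

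Pparg has several starts, which differed. A single peak spanned the 4 upstream starts in WT, null and the H2A.Z list, and in the NT list it ended 1 base before the last of them. Just before the downstream start of Pparg-201, shown above with its C/EBP letters, a peak of 21 fragments at percentile 25.5 (chr6:115421780-115422011) was called in the NT list and in no other list. Near the start of Pparg-207, 22.7 kb into the gene, a peak was called in the H2A.Z list alone, at 31.0 with 67 fragments. Near that of Pparg-205, at 79.0 kb, 2 small peaks were called in null (15 and 18 fragments) and in the H2A.Z list (92 and 61 fragments). All of these starts were far weaker than the upstream promoter. The H2A.Z list was the deepest of the 4, with a genome background of 17.8 fragments against 8.85 in WT, 5.12 in null and 3.88 in the NT list.

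Across the whole loci, WT had 92 peaks, null 83, NT siRNA 97 and H2A.Z siRNA 124. Without Zfp423 the order changed, to 66, 74, 89 and 114. Median width over the 7 loci was 491, 489, 472 and 566 bp, and these loci held between 0.101% and 0.114% of the peaks of a list. Of the 106 sites called in WT or null, 65 were in both, 25 in WT alone of the pair (23.6%, 95% Wilson interval 16.5 to 32.5%) and 16 in null alone (15.1%, 9.51 to 23.1%). Over all sites of the series these shares were 16.4% and 14.6%. At the 6 loci other than Zfp423, 9 of 81 sites were in WT but not null (11.1%) and 16 in null but not WT (19.8%).

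At Zfp423, WT had 25 sites and null 9. All 9 null sites were also WT sites, 16 WT sites (64.0%, Wilson interval 44.5 to 79.8%) were not called in null, and none was called in null without WT. NT siRNA had 8 and H2A.Z siRNA 10. Of the 16 sites, 15 were in WT and no other list, and the other, at 126 kb from the TSS, was called again in the H2A.Z list with 35 fragments at percentile 2.84. Within the gene body the counts were 20 in WT, 6 in null, 6 in the NT list and 7 in the H2A.Z list. The regions around the locus differed less. The 500 kb before the locus on the chromosome had 15 WT and 13 null sites, the 500 kb after it 29 and 24, and the ratio of null to WT sites over chromosome 8 was 0.918, against 0.36 at the locus. The TSS peaks of 9 of 12 fibroblast markers, and of 3 of 4 markers of other cell types called in both lists, also ranked lower in null than in WT, as did 62.4% of all protein-coding genes with a TSS peak in both, and the part of the cells' makeup in this difference was not tested.

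**Figure D2:**
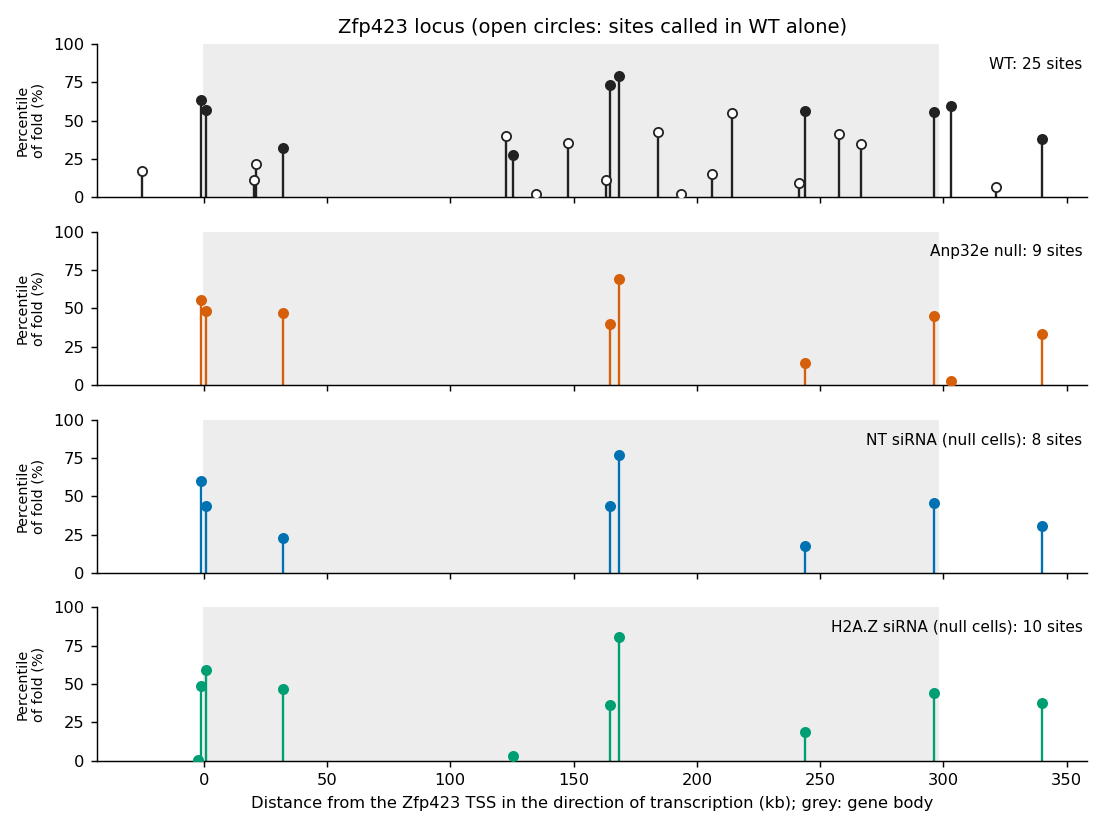
Sites at the Zfp423 locus by distance from the TSS in the direction of transcription (kb) and percentile of fold within the list (percent), 1 panel per list, with the gene body in grey and open circles for sites called in WT alone. WT has 25 sites against 9, 8 and 10 in the lists from null cells, and most of the open circles lie inside the gene.

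Among the 7678 protein-coding genes with 10 or more sites in WT or null, Zfp423 was 1 of 10 genes (0.13%) with a null to WT ratio of 0.36 or less, where the median ratio was 1. A ratio of 0.5 or less was seen for 0.599% of these genes and one of 1.5 or more for 2.16%. Pparg (12 WT and 13 null sites, ratio 1.08), Cebpa (10 and 9, 0.9), Cebpb (8 and 11, 1.38) and Ebf1 (23 and 28, 1.22) lay between those bounds, and Cebpd (3 and 4) and Fabp4 (9 and 7) had too few sites. By genome background, WT was 2.28 and null 1.32 times as deep as the NT list. When every pileup was scaled to the depth of the shallowest list and its p recomputed, Zfp423 kept 22 WT and 8 null sites, of which 14 were in WT but not null, whereas over all sites the share in WT but not null fell to 11.4%.

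**Figure D3:**
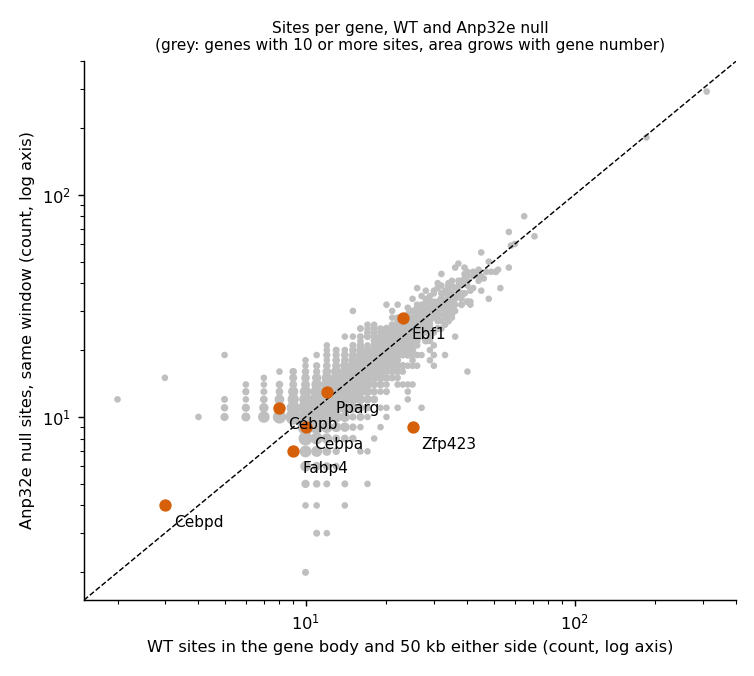
Number of sites in the gene body and 50 kb on either side in WT (horizontal) and Anp32e null (vertical), both on log axes, for protein-coding genes with 10 or more sites (grey, larger where more genes share a position) and the 7 genes (orange), with the line of equality dashed. Zfp423, with 25 WT and 9 null sites, lies farther below the line than any other of the 7 genes.

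The WT-only sites of Zfp423 were mostly intronic and weak. Of the 15, 13 were in introns and 2 between genes, their WT percentile ran from 1.95 to 55.0 with a median of 17.2, and their summits held 20 to 61 fragments. The 16 sites in WT but not null had a median of 19.4, against 17.2 for all such sites of the series. The strongest 4 are printed as windows of 100 bases on either side of the strongest summit (GRCm38), as sequence called accessible in WT and in no list from null cells.
Zfp423 WT-only site at 214 kb, chr8:87745246-87745446, plus strand: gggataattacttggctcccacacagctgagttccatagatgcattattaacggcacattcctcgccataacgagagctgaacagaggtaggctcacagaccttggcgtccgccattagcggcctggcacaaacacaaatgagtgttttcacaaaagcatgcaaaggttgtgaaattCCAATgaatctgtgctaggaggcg
Zfp423 WT-only site at 184 kb, chr8:87775079-87775279, plus strand: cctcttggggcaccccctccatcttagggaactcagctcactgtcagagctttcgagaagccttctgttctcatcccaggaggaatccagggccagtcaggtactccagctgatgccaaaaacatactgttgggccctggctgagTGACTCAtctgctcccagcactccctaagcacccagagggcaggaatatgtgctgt
Zfp423 WT-only site at 258 kb, chr8:87701953-87702153, plus strand: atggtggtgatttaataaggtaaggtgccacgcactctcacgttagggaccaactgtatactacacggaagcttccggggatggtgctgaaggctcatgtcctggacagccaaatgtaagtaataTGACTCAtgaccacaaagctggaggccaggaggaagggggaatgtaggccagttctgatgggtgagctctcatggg
Zfp423 WT-only site at 123 kb, chr8:87836958-87837158, plus strand: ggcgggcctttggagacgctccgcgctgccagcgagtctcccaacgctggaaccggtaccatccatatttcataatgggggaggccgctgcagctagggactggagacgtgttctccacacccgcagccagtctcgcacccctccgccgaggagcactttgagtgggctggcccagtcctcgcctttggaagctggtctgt
The site at 214 kb had 61 fragments over a peak of 1792 bp at percentile 55.0, that at 184 kb 45 fragments at 42.3, that at 258 kb 41 fragments at 41.5 and that at 123 kb 47 fragments at 40.0. Further WT-only sites of Zfp423 followed at 148 kb (percentile 35.7), 267 kb (35.1) and 21.1 kb (21.6). The AP-1 letters occurred in 3 of the 15 windows, compared with 33.4% of all WT summits farther than 1 kb from a TSS, the C/EBP letters in none, compared with 9.78%, and the nuclear receptor letters in 3, compared with 13.8%. Median G or C was 55.2% in these windows, 59.2% in those of the 9 Zfp423 sites called in both WT and null, and 47.3% in all distal WT summits.

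The Zfp423 sites that were called in null as well were mostly lower there. Of the 9, 8 ranked lower in null than in WT, 3 of them by more than 20 points. At 165 kb the percentile went from 73.1 in WT (148 fragments) to 40.2 in null (33 fragments), and it stood at 43.8 in the NT list (32 fragments) and 36.4 in the H2A.Z list (75 fragments). The site at 244 kb stood at 56.1, 14.7, 17.6 and 18.7 in the same order. A site at 303 kb, beyond the gene's 3′ end, had 62 fragments at 59.7 in WT and 14 at 2.58 in null, and was not called in either siRNA list. Rank at the strongest distal site of the locus, at 168 kb, moved less, from 79.2 to 69.4, 77.1 and 80.8, although its summit went from 159 fragments in WT to 53 in null. The 3 intronic sites just named that were present in every list are shown as windows of the same size.
Zfp423 retained site at 165 kb, chr8:87794609-87794809, plus strand: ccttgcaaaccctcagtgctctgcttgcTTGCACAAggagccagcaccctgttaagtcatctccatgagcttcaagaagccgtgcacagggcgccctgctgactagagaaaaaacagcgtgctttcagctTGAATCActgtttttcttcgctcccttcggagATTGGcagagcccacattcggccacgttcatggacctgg
Zfp423 retained site at 168 kb, chr8:87791165-87791365, plus strand: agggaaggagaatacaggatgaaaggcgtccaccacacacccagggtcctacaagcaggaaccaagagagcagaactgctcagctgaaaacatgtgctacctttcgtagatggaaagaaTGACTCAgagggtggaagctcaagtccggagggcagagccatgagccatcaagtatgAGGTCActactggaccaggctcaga
Zfp423 retained site at 244 kb, chr8:87715821-87716021, plus strand: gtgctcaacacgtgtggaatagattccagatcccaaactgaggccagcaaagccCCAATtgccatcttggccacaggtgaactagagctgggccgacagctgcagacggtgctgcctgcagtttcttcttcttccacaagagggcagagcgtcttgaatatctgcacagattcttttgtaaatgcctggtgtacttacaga
The window at 165 kb held matches to the C/EBP, AP-1 and CCAAT letters, that at 168 kb to the AP-1 and nuclear receptor letters, and that at 244 kb to the CCAAT letters alone.

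Summit fragments divided by the genome background of their list gave a measure that leaves out local background. Over the 66194 sites shared by WT and null, the log2 ratio of null to WT had a median of 0.59, and changes are given relative to it. Zfp423 sites lay at a median of -1.03, with 1 higher and 8 lower. The lowest were at 165 kb (-1.97, 95% counting interval -2.56 to -1.41), 303 kb (-1.95, -2.90 to -1.10), 244 kb (-1.46, -2.32 to -0.68) and 168 kb (-1.39, -1.86 to -0.93), and 0.0725% to 0.624% of all shared sites were as low. The promoter pair fell short of the general shift as well, at -0.51 each. Median values were 0.16 for Pparg, 0.20 for Cebpa, -0.01 for Cebpb, 0.12 for Cebpd, 0.06 for Fabp4 and 0.08 for Ebf1. Single sites of these 6 genes ran from -0.92 at Pparg to 0.55 at Ebf1, where the middle 50% of all shared sites lay between -0.30 and 0.26.

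**Figure D4:**
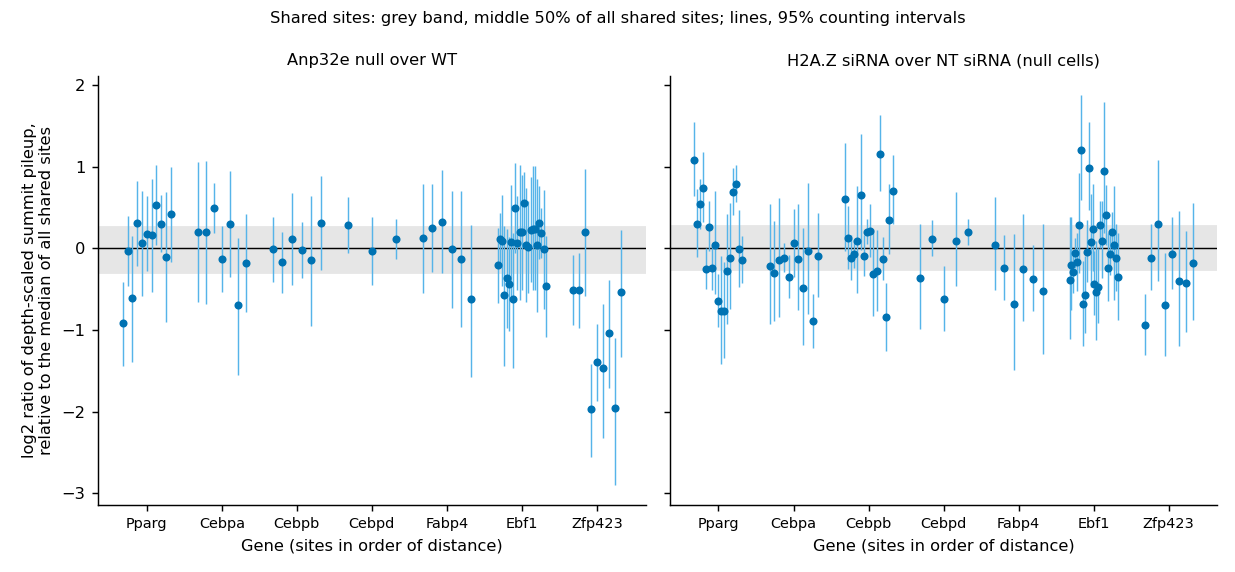
log2 ratio of depth-scaled summit fragments (vertical axis), relative to the median of all shared sites, for each shared site of the 7 genes in order of distance, with null over WT at the left and H2A.Z siRNA over NT siRNA at the right. Points are sites, lines are 95% counting intervals and the grey band is the middle 50% of all shared sites. Of the 9 Zfp423 sites at the left, 8 lie below 0, down to -1.97.

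By rank, the 65 sites shared by WT and null at the 7 loci had a median change of 0.98 points, against -0.74 over all 66194 shared sites. A rise of 20 points or more was seen at 1 site, where the series had 7.78%, and a fall as large at 7, where it had 8.47%, 3 of them at Zfp423. The largest rise was at Cebpb, in an intron of A530013C23Rik at 24.8 kb, from 33.6 to 59.7 (51 and 55 fragments). Rises at 2 Cebpa sites followed, from 22.1 to 41.9 at 19.2 kb and from 13.9 to 33.4 at -20.4 kb. By depth-scaled summit fragments, the log2 changes at these 3 sites were 0.31 (-0.27 to 0.89), 0.30 (-0.35 to 0.95) and 0.20 (-0.68 to 1.08). By gene, Cebpa had the highest median change (14.1 points, 5 of 7 sites higher), followed by Cebpb (6.36, 4 of 6) and Pparg (6.20, 9 of 11). Over all shared sites 46.3% ranked higher. By depth-scaled summit fragments 4 of 7 Cebpa, 2 of 6 Cebpb and 7 of 11 Pparg sites lay above the median of all shared sites. Ebf1 (0.00, 11 of 23) was balanced, and all 3 sites of Cebpd ranked lower in null. The 3 largest falls were the Zfp423 sites at 303, 244 and 165 kb. Of the other 4 that fell by 20 points or more, 2 were upstream of Pparg, where the site at -44.0 kb went from 71.9 to 44.2 (104 and 48 fragments).

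Sites absent from WT and present in all 3 lists from null cells numbered 9 at the 7 loci (5.96% of their sites, against 5.50% in the series). Cebpb had 4 of them, Ebf1 2, and Cebpa, Cebpd and Fabp4 1 each. The strongest by mean rank was at -9.99 kb from Cebpd, at 38.5 in null, 49.3 in the NT list and 62.2 in the H2A.Z list (26, 33 and 134 fragments). At Cebpb they lay at 9.19, 38.4, 50.3 and 52.0 kb, of which that at 38.4 kb, in an exon of A530013C23Rik, was the strongest in the NT list at 69.7. The Ebf1 pair lay at -31.0 kb and, in an intron, at 109 kb. In the latter the percentile was 53.1 in null (44 fragments), 16.3 in the NT list (34) and 56.8 in the H2A.Z list (256). Those of Fabp4 and Cebpa, at -31.4 and 22.5 kb, were weak in null, at 7.92 and 13.4. Of the 18 sites called in WT alone (11.9% of the sites at the 7 loci, against 6.94% in the series), 3 lay outside Zfp423, namely at 34.5 kb from Fabp4 (percentile 34.5) and at -38.2 and -11.0 kb from Cebpa (29.3 and 17.2).

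Pparg had 12 sites in WT, 13 in null, 19 in the NT list and 28 in the H2A.Z list. Of its 30 sites, 11 were common to all lists, as were 45.9% of all sites of the series. Its strongest distal site by mean rank lay at -27.7 kb, between genes, at 73.2, 83.4, 93.6 and 90.8 in the order WT, null, NT siRNA, H2A.Z siRNA. An intronic site at 29.5 kb, noticed after its values were seen, differed most of the Pparg sites in all lists between untransfected and transfected cells. It stood at 48.2 in WT and 58.9 in null (38 and 37 fragments) but at 98.7 in the NT list and 92.7 in the H2A.Z list (113 and 275 fragments). The NT siRNA list rests on 1 library and WT cells were not transfected, so transfection and library cannot be told apart here. The window around its summit was 36.3% G or C and matched none of the letters searched.
Pparg intronic site at 29.5 kb, chr6:115390342-115390542, plus strand: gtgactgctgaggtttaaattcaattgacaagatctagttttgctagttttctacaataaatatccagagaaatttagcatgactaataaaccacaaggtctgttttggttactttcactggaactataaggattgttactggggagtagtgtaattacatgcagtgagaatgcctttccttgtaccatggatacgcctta
At Pparg 6 sites were called in both siRNA lists and in neither of the others. Across the 7 loci there were 20 such sites (13.2%, against 8.99% in the series).

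The C/EBP loci differed in density. Cebpd had 3, 4, 5 and 5 sites in WT, null, NT siRNA and H2A.Z siRNA, the fewest of the 7, whereas Cebpb, in a window of similar length, had 8, 11, 17 and 20. Cebpa had 10, 9, 12 and 14. The strongest distal sites were a promoter shared with Tmem189, at -27.2 kb from Cebpb (73.6, 68.0, 80.9 and 80.5), the Mzt2 promoter at -24.0 kb from Cebpd (73.7, 69.5, 64.4 and 79.9) and a site between genes at 8.02 kb from Cebpa (77.1, 68.0, 87.7 and 78.0). Between Cebpd and Mzt2, a site at -20.0 kb stood at 64.9 in WT and 47.6 in null but at 13.0 and 11.5 in the siRNA lists. By depth-scaled summit fragments Cebpb sites were higher in the NT list than in untransfected null cells. In log2 ratios relative to all shared sites their median was 0.97, all 10 were above 0, and the promoter was at 1.31 (1.02 to 1.60). By fold 8 of the 10 ranked higher, while the promoter (60.8 in null and 53.3 in the NT list) and the site at -39.5 kb (69.2 and 61.9) ranked lower. This comparison, between a transfected and an untransfected culture, was made after the values had been seen.

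Fabp4 lies in a cluster of fatty acid binding protein genes, and its strongest distal site, at -41.0 kb in an intron of Fabp12, stood at 70.9, 82.9, 87.2 and 84.5. The locus had 9 sites in WT, 7 in null, 7 in the NT list and 11 in the H2A.Z list. Only 2 of its sites were in all lists, the lowest share of the 7, where the share over all sites of the series was 45.9%. An exonic site 1.69 kb into the gene was called in WT (47.7) and in the H2A.Z list (15.6) but not in null or in the NT list. Ebf1 had 20 of its 37 sites in all lists, beside the 45.9% of the series. All 23 WT sites of Ebf1 were also called in null, and 5 more were called in null but not WT. Its strongest distal site was at -6.22 kb, in an exon of Gm37695, at 83.6, 84.2, 96.2 and 93.4. Inside the gene the sites at 195 kb (87.6, 94.0, 81.9 and 89.8) and 334 kb (88.4, 88.4, 66.9 and 76.1) were the strongest in WT.

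**Figure D5:**
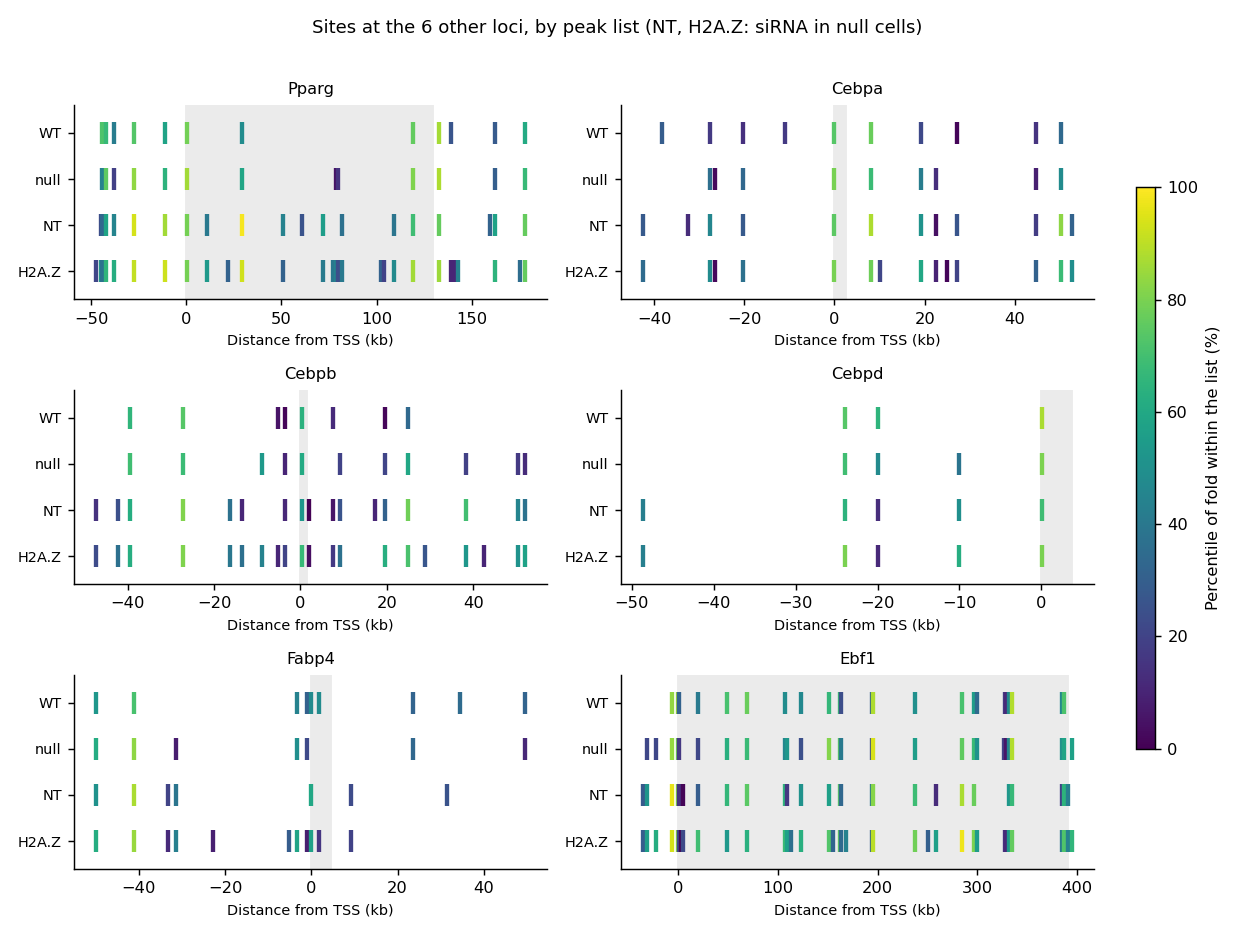
Sites at the loci of Pparg, Cebpa, Cebpb, Cebpd, Fabp4 and Ebf1 by distance from the TSS (kb), 1 row per list, coloured by percentile of fold within the list, with the gene body in grey. Pparg goes from 12 sites in WT to 28 in the H2A.Z list, and Cebpd has at most 5.

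H2A.Z siRNA in null cells was compared with NT siRNA. Of 129 sites in either list, 89 were in both, 5 in the NT list alone (3.88%) and 35 in the H2A.Z list alone (27.1%, Wilson interval 20.2 to 35.4%), near the 4.16% and 23.5% of the series. The H2A.Z siRNA list was 4.59 times as deep. Scaled to equal depth, 27 sites were in H2A.Z siRNA alone and 6 in NT siRNA alone, where over all sites the shares were 16.7% and 6.80%, and with lists cut to an equal number of peaks 17 and 13. Ebf1 had 10 and Pparg 11 of the 35, and Cebpd none. The 89 shared sites had a median rank change of 5.36 points, near the 4.98 of all sites. That median fell to 0.61 when pileups were scaled to equal depth, where all sites had 1.87, and turned to -3.17 when the same number of peaks was taken from each list, so its sign is not settled by these lists. The endothelial markers Pecam1 and Cdh5 ranked 29.6 and 28.2 points higher in the H2A.Z list, all 12 fibroblast markers ranked higher there too, as did 67.0% of all genes, and the part of these cells in the changes was not tested. A rise of 20 points or more was seen at 9 sites (13.1% in the series) and a fall as large at none (1.51%).

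The 3 largest rises were all in Ebf1 introns. At 259 kb the percentile went from 12.2 in the NT list to 56.3 in the H2A.Z list, at 109 kb from 16.3 to 56.8, and at 19.98 kb from 29.2 to 69.3. In depth-scaled summit fragments relative to all shared sites these were log2 changes of 0.94 (0.18 to 1.80), 0.99 (0.47 to 1.55) and 1.20 (0.59 to 1.88). The site at 19.98 kb stood at 41.0 in WT and 21.4 in null. Falls were smaller, with the largest at 38.4 kb from Cebpb (69.7 to 52.7), 50.3 kb from Cebpa (83.1 to 68.0) and 71.7 kb into Pparg (55.2 to 41.2). The upstream Pparg promoter barely moved, with a rank of 79.1 and 79.0, and those of Cebpd (69.0 and 79.9) and Cebpb (53.3 and 67.4) ranked higher in the H2A.Z list. At Zfp423 the site counts were 8 and 10, against 25 in WT. Its 8 shared sites had a median log2 change of -0.29, with 7 below 0, and the upstream peak of its promoter pair was the lowest at -0.94 (-1.30 to -0.56). Changes above 1 were seen at 19.7 kb from Cebpb (1.15, 0.70 to 1.64) and at -45.0 kb from Pparg (1.08, 0.64 to 1.54), besides the Ebf1 site at 19.98 kb.

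Consensus letters were counted in such windows at all distal sites of Pparg and Ebf1 called in any list, whereas the summits compared are of WT alone. The C/EBP letters occurred in 5 of 23 Pparg windows (21.7%) and 4 of 33 Ebf1 windows (12.1%), against 9.78% of distal WT summits. The AP-1 letters occurred in 43.5% and 45.5%, against 33.4%, and the EBF letters in 1 window each, against 6.11%. Among sites of the 6 loci found in all lists and distal to any TSS, 18 of 41 held the AP-1 letters (43.9%) and 4 the C/EBP letters (9.76%).

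Of 62 further genes of the fat cell program, listed by role with earlier results of these data known, 53 had a TSS peak in WT, 55 in null, 53 in the NT list and 54 in the H2A.Z list, beside the 67.2, 66.7, 66.8 and 68.4% of all protein-coding genes given above. All 7 partners and coactivators of PPARG and all 11 early activators had one in every list. Of 21 genes of the mature fat cell, 16 had one in WT and null, 15 in the NT list and 16 in the H2A.Z list, whereas Adipoq (adiponectin), Cidec and Cd36 (lipid handling), Cfd (adipsin) and Ucp1 (heat production) had none in any list, nor had Cebpe and Fabp9. Presence differed for 4 genes. Wnt10b, a repressor of adipogenesis, and Fabp12 lacked a peak in WT only, Retn (resistin) in the NT list only, and Pmp2 in both siRNA lists. The largest rank rises from WT to null were at Slc2a4 (the insulin-responsive glucose transporter, 45.6 to 65.6), Rxra (the partner of PPARG, 48.8 to 65.5) and Gata2 (a repressor, 53.4 to 67.1), and the largest falls at Cidea (58.8 to 42.2), Ebf3 (76.1 to 63.3) and Srebf1 (65.6 to 53.5). After H2A.Z siRNA, Dlk1 (39.5 to 52.3), Scd1 (79.1 to 91.4) and Lipe (76.5 to 87.9) ranked higher than in the NT list, and Klf3 (75.7 to 65.4), Pnpla2 (85.2 to 77.7) and Srebf1 (81.0 to 74.9) lower. The median change over the list was -2.44 from WT to null and 4.09 from NT to H2A.Z siRNA, against -1.36 and 2.08 over all genes.

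As a check of the cells, all 12 fibroblast marker genes had a TSS peak in every list, and 5, 5, 6 and 7 of 14 markers of other cell types did in WT, null, NT siRNA and H2A.Z siRNA, where 67.2, 66.7, 66.8 and 68.4% of all genes have one. Ptprc, Cd3e, Krt5, Nanog, Alb and Myog had none in any list, and Epcam, Cdh1, Cdh5 and Sox2 had one in all, at percentiles from 12.6 to 68.2. The endothelial marker Pecam1 was called at 38.9 in WT, 47.6 in the NT list and 77.2 in the H2A.Z list but not in null, and Cdh5, the other endothelial marker, stood at 27.3, 12.6, 26.7 and 54.9. Both ranked more than 20 points higher in the H2A.Z list than in the NT list, and Cdh5 ranked lower in null than in WT. Of the fibroblast markers, 9 ranked lower in null than in WT, with a median change of -5.57 points, against -1.36 over all genes. Prrx1 went from 30.1 to 5.98, Pdgfra from 59.9 to 42.2, while Col3a1 went from 23.5 to 49.7 and the change at Vim was -14.1 points. Among the markers of other cell types, Epcam went from 54.2 to 30.6, while Cdh1, also an epithelial marker, went from 36.7 to 38.5. From the NT to the H2A.Z list all 12 fibroblast markers ranked higher, with a median change of 9.21 points against 2.08. The part of other cells in the differences between lists was not tested. The genes nearest to each member over the 4 TSS percentiles, by Euclidean distance among 13986 genes, were Traf3ip2 and Meox2 for Pparg (1.79 and 1.85 points), Cpne1 and Gm28036, which share a TSS peak, for Cebpa (1.72), Iqgap2 and Nptx2 for Cebpb (2.21 and 2.78), Paxip1 and Setd3 for Cebpd (0.87 and 1.71), Scrt1 and Cpxm1 for Fabp4 (3.86 and 4.04), 1110032F04Rik and Ipo13 for Ebf1 (1.24 and 1.38), and Rhno1 and Kctd14 for Zfp423 (0.934 and 1.82).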

How the data were processed

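Peak lists from ATAC-seq of 9 libraries in 4 groups were analysed. Bowtie2 2.3.4.1 (alignment to mm10), Picard 2.18.23 (duplicate removal) and MACS2 2.1.4 (peaks) were run by the authors, per the study's methods and processing notes. The deposited lists give each peak's fold enrichment, a ratio of summit pileup to local background, with the deposited p-value as −log10, a deposited q-value score (also −log10) and the summit offset. The labels name 1 list for all libraries of a group, and how libraries were combined for it is not given in the sources used here. With 1 list per group, no replicate values were analysed and no test was made between lists.

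Peaks on chromosomes 1 to 19, X and Y were used. Summit fragments and local background were solved from the fold (with a pseudocount of 1) and −log10 p under the Poisson model of MACS2, and 100% of pileups came within 0.05 of a whole number. The solver was tested on simulated data. Peaks of the 4 lists that overlapped by 1 bp or more were merged into sites, and each list's highest-ranked peak stood for a site. Genome background, the most frequent local background of a list, served as depth (8.85, 5.12, 3.88 and 17.8 fragments for WT, null, NT and H2A.Z siRNA), and the lists held 84040, 82567, 89272 and 108409 peaks. Genes and starts were from GENCODE M21 on GRCm38, sequences from RefSeq. Distances are from a site's strongest summit to the gene's outermost start. Shares carry Wilson and fragments exact Poisson 95% intervals, and ratios an interval from the exact binomial, all for counting error only.

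The members, gene lists and rules were chosen with earlier results of these data known. Sites named were the TSS peaks, each gene's strongest distal site, up to 10 sites in WT alone or in all lists but WT, and the 3 largest rank changes each way in each comparison. Further sites, only some of them given as strong or as noticed later, were named outside these rules. Of the wider list, genes whose presence differed and the 3 largest changes each way are named. Alternatives were a −log10 q of 5 or more, equal numbers of peaks (82567), pileups scaled to equal depth, ranking by −log10 p or among promoter peaks, promoters of 500 bp, protein-coding starts, flanks of 25 and 100 kb, a reciprocal overlap of 50% and sites with 1 peak per list. Ranking by summit fragments was added after the data had been seen. Python 3.11.15, NumPy 2.4.6, SciPy 1.17.1, pandas 2.3.3 and matplotlib 3.10.9 were used.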

Additional observations from a re-analysis of the deposited data

How the results depend on the processing

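No paired analysis was possible because 1 peak list stood for all libraries of a group, and leaving out a replicate was not possible for the same reason. Of 196 values under alternative settings, 174 stayed within set bounds, 21 moved past them and 1 reversed. The bounds were 1.5 times the main value for a count, and the 95% interval from order statistics for a median, so a count of 36 in place of 25 sites in WT but not null (reciprocal overlap of 50%) or 24 in place of 16 in null but not WT (flanks of 100 kb) lay within them. The loss at Zfp423 kept its direction under all alternatives run, with 11 to 20 WT sites absent from null. The median rank change from NT to H2A.Z siRNA reversed to -3.17 with equal numbers of peaks per list and fell to 0.61 at equal depth. Ranked by −log10 p, the median TSS percentile of the 7 genes was 91.9 in the NT list and 92.9 in the H2A.Z list, ranked by summit fragments 92.5 and 93.1, and among promoter peaks 52.9 in the NT list. With flanks of 100 kb the loci held 142 WT, 131 null, 148 NT siRNA and 195 H2A.Z siRNA peaks, 17 sites at the 6 loci without Zfp423 in WT but not null, and 56 sites in H2A.Z but not NT siRNA. With 25 kb, 10 sites were in null but not WT (all at those 6 loci) and 2 in NT but not H2A.Z siRNA. Under a reciprocal overlap of 50%, 27 sites were in null but not WT (4 at Zfp423), 16 at the 6 loci in WT but not null, and 14 in NT but not H2A.Z siRNA. With equal numbers of peaks, 13 were in NT but not H2A.Z siRNA and 17 the reverse. The cause of these moves was not tested, other than the wider or narrower window. The lists differ in depth, so the absence of a weak site from a shallower list says only that it was not called there.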
